A study of Gossypium hirsutum with 3 samples.

Results

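Calmodulin and a calmodulin-binding protein of cotton were followed on 3 microarrays of young fiber. The genes were Contig15340, similar to calmodulin, and Contig16628, weakly similar to a calmodulin-binding protein of rice. They are 2 of the 11143 genes on the array and were taken by name from the spots of the scanner files. Both were named in the study because of their ratios on these arrays, so that their ratios are given as a description with no test. Each array held RNA of fiber initials and RNA of whole ovules, both collected 1 dpa (dpa counts days from flower opening), from field grown upland cotton (Gossypium hirsutum). The methods name the cultivars DES119 and ST4793R without saying which was used on which array. By the same methods the initials were shaken off frozen ovules of pooled bolls with glass beads, while whole ovules carry the initials together with all other ovule cells. The labels call the RNA total and give a polyribosomal isolation as the extraction.

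Calmodulin is a small protein with EF hands, loops that hold calcium. When calcium enters the cytosol, calmodulin binds it, changes shape and clasps short helices of its target proteins, the calmodulin-binding proteins. In plants these targets include kinases, pumps, motor proteins and transcription factors, and calcium gradients at the cell tip guide the growth of root hairs and pollen tubes. Other calcium sensors of plants act through kinases, either built into the same protein (CDPK) or bound by a calcineurin B-like sensor (CBL). Pumps and exchangers then remove calcium from the cytosol.

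The direction of the ratios rests on codes. The sample code in green begins with SP2 on arrays 1 and 3 (SP2A, SP2C) and with SP1 on array 2 (SP1E), and the red codes are SP1A and SP1F on arrays 1 and 3 and SP2A on array 2. The labels put fiber in green except on array 3, so that they name SP2 RNA fiber on array 1 and ovule on arrays 2 and 3. Ratios are given with SP2 RNA on top. By the label of array 1 this is fiber over ovule, and by the labels of arrays 2 and 3 it is ovule over fiber. Of 5 markers of young fiber, the mean ratios ranged between 0.37 and 1.29 on the log2 scale, with MYB109 and the FIDDLEHEAD-like GhFDH, a gene of the epidermis, called higher in SP2 RNA (2 of 5, against 3.95% of all genes tested). The acetyltransferase gene GhACY was negative on array 1 only (-0.73). The 3 genes of dividing cells named here (histones H4 and H2A and topoisomerase II) were lower by limma, with ratios between -3.33 and -2.26, against 8.31% of all genes tested. Both marker lists were chosen with earlier results of these data known. Their shares are therefore a description and no check of the orientation. Across genes, ratios of SP2 over SP1 RNA had Pearson correlations of 0.580 (arrays 1 and 2), 0.522 (arrays 1 and 3) and 0.810 (arrays 2 and 3). The Spearman correlations of the same pairs were 0.354, 0.321 and 0.711, so that array 1 stood apart. By the labels arrays 1 and 2 have the same dye orientation, yet their red over green ratios had a correlation of -0.580. The labels of arrays 1 and 2 and the sign of this correlation do not match. The codes do not say which RNA is fiber, so that this is not settled here. Mean ratios by the labels are given too, but they mix both orientations of SP2 and SP1 RNA. The methods state that replicates were harvested on separate days, but the code SP2A stands on both arrays 1 and 2. Whether these arrays share an RNA is not settled by the labels, and errors over arrays may in part be technical. In RNA of whole tissue, more cells of a type and more RNA per cell cannot be told apart.

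Each of the 2 genes was represented by 1 probe printed in 3 spots, as were 831 genes of the array in all. All 18 readings of these spots, 3 spots of 2 genes on 3 arrays, were above background in green and in red, and 0 were saturated. Negative control spots had median signals between 23.7 and 82.8 over arrays and colors. Array 1 had the most variable negative controls in green, with an SD of 102 against 5.85 and 5.32 on arrays 2 and 3. The lowest signal of either gene in any spot was 668, of the binding protein in SP1 RNA on array 2.

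Calmodulin was bright in both RNAs and brighter in SP2 RNA in each spot. After subtraction of the local background, array 1 gave 15304, 15925 and 15390 units in SP2 RNA (Cy3) and 4193, 4311 and 4181 in SP1 RNA. Array 2, on which SP2 RNA carried Cy5, gave 23070, 25478 and 25148 units in SP2 RNA and 2279, 2518 and 2538 in SP1 RNA. Array 3 gave 14762, 16425 and 15788 units in SP2 RNA and 2823, 3147 and 3067 in SP1 RNA. The lowest spot in SP2 RNA was thus far above the highest spot in SP1 RNA on each array, whichever dye SP2 RNA carried. The 3 spots of an array differed with a coefficient of variation between 1.70% and 5.89%. Before normalization the calcium sensor had its weakest signal in the SP1 RNA of array 2, where it was brightest in SP2 RNA. After normalization its lowest log2 level in SP1 RNA was 11.67, on array 1, against 11.95 on array 2.

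**Figure D1:**
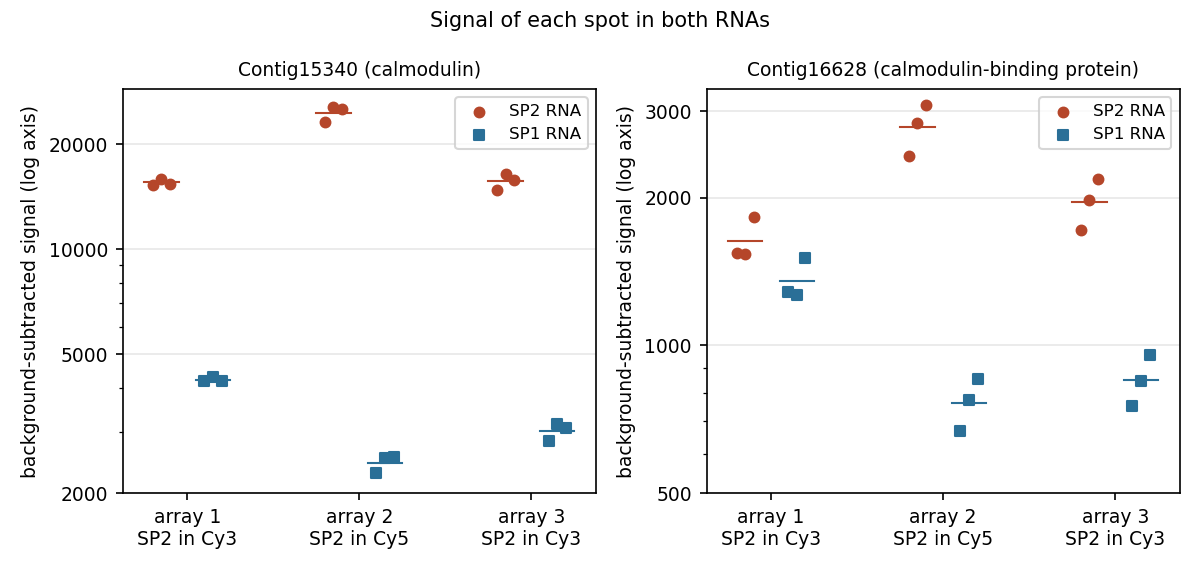
Background-subtracted signal of each spot (points, log axis) of calmodulin (left) and the calmodulin-binding protein (right) on the 3 arrays, with SP2 RNA as red circles, SP1 RNA as blue squares and bars for the mean of 3 spots. Calmodulin is at least 3.67 times as bright in SP2 RNA on each array, and the binding protein is nearest to even on array 1, with means of 1634 in SP2 RNA and 1353 in SP1 RNA.

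The calmodulin-binding protein gave weaker signals from its own probe, which is not comparable with that of calmodulin. Array 1 gave 1542, 1535 and 1826 units in SP2 RNA (Cy3) and 1282, 1268 and 1509 in SP1 RNA. The lowest spot in SP2 RNA was only just above the highest spot in SP1 RNA on this array. Array 2 gave 2438, 2840 and 3087 units in SP2 RNA (Cy5) and 668, 773 and 854 in SP1 RNA. Array 3 gave 1723, 1982 and 2188 units in SP2 RNA and 752, 847 and 956 in SP1 RNA. The spots of both RNAs did not overlap on any array, and they lay further apart on arrays 2 and 3. The coefficient of variation between spots was larger than for calmodulin, up to 12.2%, and the order of the spots was the same in both RNAs on each array.

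After normexp, a background correction that keeps signals above 0, and loess, which removes the part of a red over green ratio that follows from brightness, calmodulin had log2 ratios (SP2 RNA over SP1) of 2.03 on array 1, 2.10 on array 2 and 1.80 on array 3. The mean was 1.98 ± 0.14 (SE from limma, n = 3 arrays), or 3.94-fold. The SD over arrays was 0.16, and 27.9% of all genes tested had a smaller one. The spots of an array differed far less, with an SD between 0.01 and 0.03 within an array. By mean ratio calmodulin ranked 2 of the 11081 genes tested, counted from the highest. It ranked 1 on array 1, 29 on array 2 and 22 on array 3, and 17 by the mean of arrays 2 and 3 alone. It was among the 45 genes (0.406% of those tested) that were at least 2-fold higher in SP2 RNA on all arrays.

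The binding protein had log2 ratios of 0.48, 1.14 and 0.77 on arrays 1, 2 and 3, with a mean of 0.80 ± 0.17 (SE from limma, n = 3 arrays), or 1.74-fold. Its SD over arrays was 0.33, larger than that of 66.6% of genes tested, and its SD among spots again lay between 0.01 and 0.03 within an array. It ranked 346 by mean ratio. All ratios of both genes were above 0, as were those of 20.9% of genes tested, and the size of the binding protein reached 2-fold on array 2 only. Without array 1 its mean was 0.95, and that of calmodulin 1.95.

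The size of the calmodulin ratio depended on the normalization. In the deposited ratios, turned to SP2 over SP1 RNA but otherwise as computed by the authors, calmodulin had 1.88, 3.33 and 2.38 on arrays 1, 2 and 3, with a mean of 2.53 and an SD of 0.74. The ratios reported here, after normexp and loess together, differed from these by 0.15 on array 1, by -1.23 on array 2 and by -0.58 on array 3. With normexp kept and median centring in place of loess the ratios were 1.99, 3.03 and 2.11, with a mean of 2.38. Array 2, the array with SP2 RNA in Cy5, was the highest for calmodulin with loess, with median centring and in the deposited ratios, while with loess and a normexp offset of 10 array 1 (2.08) and array 2 (2.07) were about even. The binding protein had deposited ratios of 0.27, 1.87 and 1.21, with a mean of 1.11 and an SD of 0.80. Its highest ratio, on array 2, was 1.55 with normexp and median centring and 1.14 with normexp and loess. The dye and array 2 cannot be told apart here, since only that array had SP2 RNA in Cy5. The deposited ratios were not centred, and the median of all genes in them was 0.25 against 0.04 after normexp and loess.

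**Figure D2:**
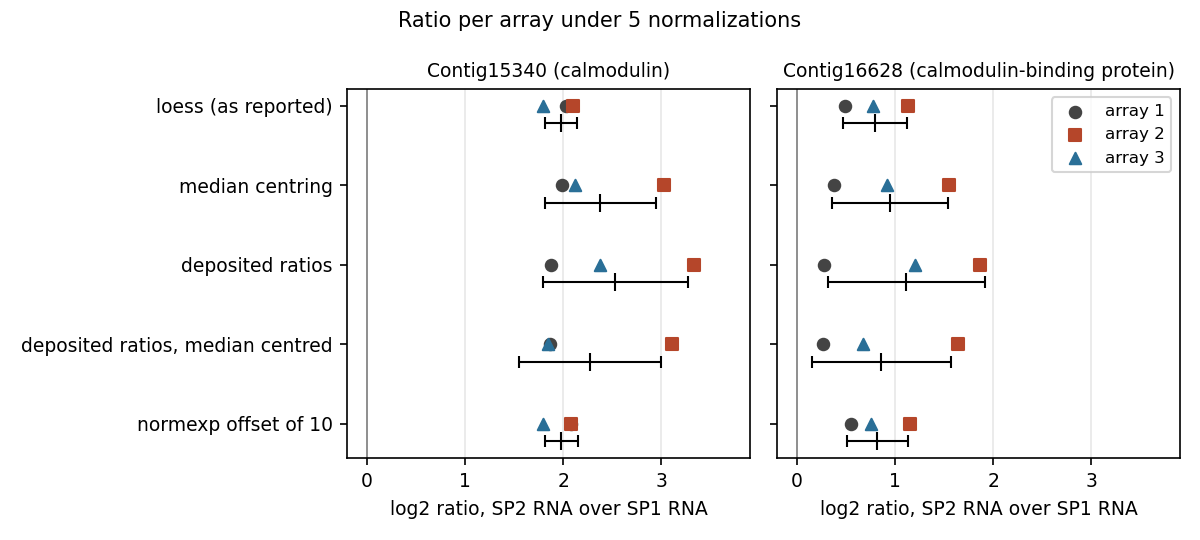
Log2 ratio of SP2 RNA over SP1 RNA on each array (points) for calmodulin (left) and the calmodulin-binding protein (right) under 5 normalizations, with the mean and SD of the 3 arrays drawn below each row of points. All points lie above 0, and the SD of calmodulin is 0.16 with loess against 0.74 in the deposited ratios.

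Both dyes showed the same direction once the codes were used. For calmodulin, the mean was 2.01 with each dye orientation given equal weight and 1.93 with arrays 1 and 2 counted as 1 sample, settings chosen after seeing the data, and for the binding protein it was 0.88 and 0.79. Turned by the labels instead, calmodulin had ratios of fiber over ovule of 2.03, -2.10 and -1.80 on arrays 1, 2 and 3, and the binding protein of 0.48, -1.14 and -0.77. By the labels array 1 therefore had the opposite sign to arrays 2 and 3 for both genes, and limma passed 0 of 11081 genes. At an unadjusted p under 0.05 there were 538, and the smallest adjusted p was 0.904.

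Taken apart by RNA, with loess and average intensities made alike between arrays, calmodulin had log2 levels of 13.70, 14.06 and 13.86 in SP2 RNA and 11.67, 11.95 and 12.06 in SP1 RNA. The mean level was 13.87 ± 0.18 in SP2 RNA and 11.90 ± 0.20 in SP1 RNA (SD, n = 3 arrays each). The binding protein had levels of 10.46, 11.03 and 11.15 in SP2 RNA and 9.97, 9.90 and 10.38 in SP1 RNA. Its means were 10.88 ± 0.37 in SP2 RNA and 10.08 ± 0.26 in SP1 RNA. For each gene the lowest SP2 level was above the highest SP1 level, narrowly so for the binding protein. This held for 11.7% of all genes tested.

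Calmodulin exceeded the binding protein in the size of the ratio on each array. The log2 ratio of calmodulin minus that of the binding protein was 1.55, 0.97 and 1.02 on arrays 1, 2 and 3, with a mean of 1.18 and an SD of 0.32. It was largest on array 1, where the binding protein was nearest to even. Since both were chosen by their ratios, this difference was not tested.

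What a single probe cannot show is whether other parts of the transcript had the same ratio. The ratios of different probes of a gene had a median SD of 0.14 over the 10268 genes with at least 2 probes kept, against 0.03 for the spots of a single probe. Of 308 such genes with a mean ratio at or above that of the binding protein, 305 had all probes above 0. Since these genes were taken by the mean of the same probes, the count cannot show how other probes of the 2 genes would behave. Calmodulin belongs to a family of nearly identical proteins, and whether the probe of this gene also bound transcripts of other calmodulin genes was not tested.

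The other calcium signaling genes were taken by keyword from the study's table, with Contig9400 added from the study's text. By the paper that table includes genes that varied more than 2-fold on these arrays or on arrays of older fiber. They are therefore no independent evidence of a direction. The share of them called was raised by this choice and is given as a description beside that of all genes. Of these 8 genes, limma called 1 higher and 3 lower in SP2 RNA, and 4 did not pass. Of all genes tested 12.3% were called, 3.95% higher and 8.31% lower, and without array 1 these shares were 10.1% and 7.92%. The median ratio of the 8 genes was -0.55, against 0.04 over all genes tested. On all arrays 2 of the 8 were above 0 (20.9% of genes tested) and 4 were below 0 (23.1% of genes tested). The levels of these 4 in SP2 RNA all lay below those in SP1 RNA, as for 15.6% of genes tested. At the threshold of the study's methods, at least 2-fold and an unadjusted p of 0.05 or less, 1.73% of genes tested were higher and 4.73% lower. With the ordinary test, without limma's moderation, 0 of the 8 were called, and 2 of all genes tested. The calcium genes thus had ratios of both signs.

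**Figure D3:**
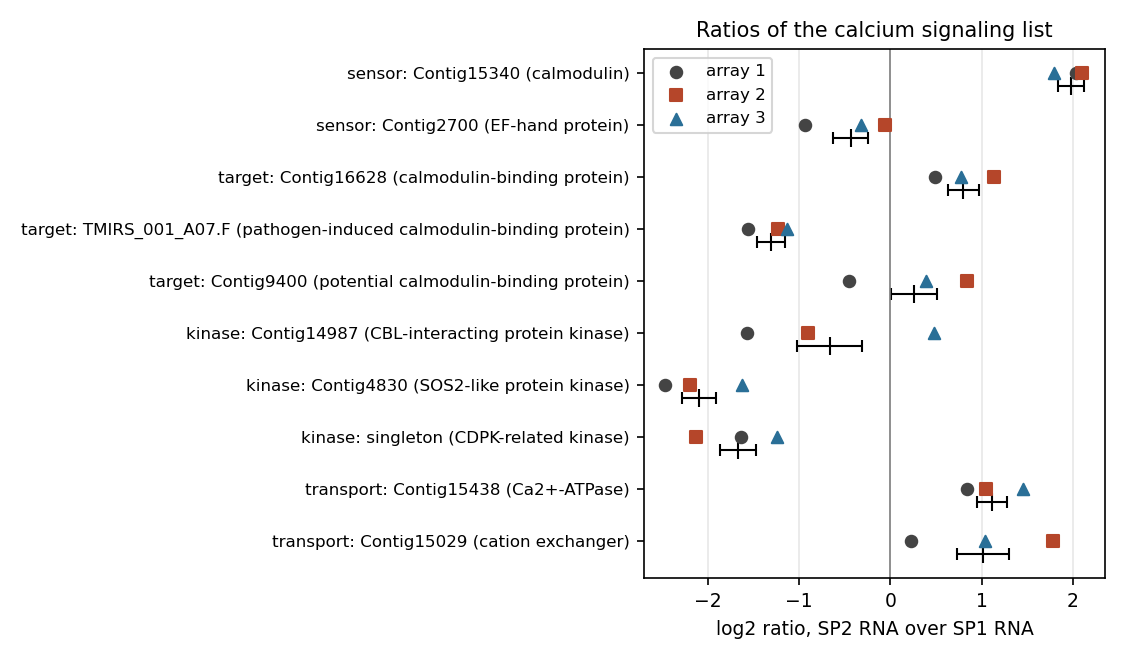
Log2 ratio of SP2 RNA over SP1 RNA on each array (points) for the 10 genes of the calcium signaling list by role, with the mean and its SE from limma drawn below each row of points. Calmodulin and the Ca2+-ATPase are above 0.8 on each array, and the SOS2-like and CDPK-related kinases are below -1.2 on each array.

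Among sensors, Contig2700, an EF-hand protein, had ratios of -0.93, -0.05 and -0.32 on arrays 1, 2 and 3, with a mean of -0.44 ± 0.20 (SE, n = 3; limma adjusted p = 0.236). All 4 of its probes had negative means, between -0.61 and -0.17. Its levels in SP2 RNA, 7.39, 8.05 and 7.95, lay below those in SP1 RNA, 8.32, 8.11 and 8.27. This sensor was below 0 on each array and did not pass the test.

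Among targets, TMIRS_001_A07.F, similar to a calmodulin-binding protein that pathogens induce, was lower in SP2 RNA. Its ratios were -1.56, -1.23 and -1.13, with a mean of -1.31 ± 0.15 (SE, n = 3; limma adjusted p = 0.00483). All 4 probes were negative, between -1.90 and -0.96, and the levels were 7.04, 7.32 and 7.12 in SP2 RNA and 8.60, 8.55 and 8.25 in SP1 RNA. With the deposited ratios it was not called (-1.26, limma adjusted p = 0.0573). The sign was opposite to that of Contig16628 on each array. Contig9400, described as a potential calmodulin-binding protein, had -0.45, 0.84 and 0.39 (mean 0.26 ± 0.25, limma adjusted p = 0.652). Its levels overlapped between the RNAs, and 3 of its 4 probes turned from negative on array 1 to positive on arrays 2 and 3.

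Among kinases, the largest ratio was that of Contig4830, similar to SOS2, a kinase that a calcineurin B-like sensor activates under salt stress in Arabidopsis. It had -2.47, -2.20 and -1.63 on arrays 1, 2 and 3, with a mean of -2.10 ± 0.19 (SE, n = 3; limma adjusted p = 0.00244; 4.28-fold lower in SP2 RNA). Its levels were 8.94, 8.48 and 8.74 in SP2 RNA and 11.41, 10.67 and 10.37 in SP1 RNA. It ranked 11009 of 11081 from the highest ratio. A singleton with a weak match to a CDPK-related kinase was also lower, with -1.64, -2.13 and -1.24 (mean -1.67 ± 0.19, limma adjusted p = 0.00515). Its 3 probes had the same sign but unequal sizes, -0.61, -2.33 and -2.07. Contig14987, similar to a CBL-interacting kinase, had -1.57, -0.90 and 0.47 (mean -0.67 ± 0.36, limma adjusted p = 0.339). All 4 of its probes were negative on arrays 1 and 2 and positive on array 3, so that the turn lay between arrays and not between probes. Without array 3 its mean was -1.24 and it was called lower. In that fit the calcium genes all had the same SE (0.29), so that the gene's own spread did not enter the call.

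Among transporters, Contig15438, similar to a calcium pump of the chloroplast envelope (Ca2+-ATPase), was the gene of the 8 called higher. It had 0.84, 1.05 and 1.46 on arrays 1, 2 and 3, with a mean of 1.12 ± 0.17 (SE, n = 3; limma adjusted p = 0.0102; 2.17-fold). Its 4 probes had positive means, the lowest 0.95, and its levels were 10.70, 10.96 and 11.36 in SP2 RNA and 9.85, 9.91 and 9.90 in SP1 RNA. With median centring it was not called (adjusted p = 0.0519), nor with the deposited ratios (adjusted p = 0.0545), although its mean was larger in both (1.27 and 1.46). Contig15029, similar to a cation exchanger of the CAX family, whose better known members move calcium into the vacuole in Arabidopsis, had 0.23, 1.78 and 1.03. Its mean of 1.01 ± 0.28 was not called (limma adjusted p = 0.0689), but it was higher at the methods' threshold. It was also called with an offset of 10 (1.11, limma adjusted p = 0.0267) and without array 1 (1.41, limma adjusted p = 0.0256). Its mean was 1.00 without array 3 and 0.63 without array 2. In each of these last fits the calcium genes all had the same SE (0.29 without array 3), so that the gene's own spread did not enter.

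Fewer genes had ratios near those of calmodulin than near those of the binding protein. The measure depends on the size of the ratios, and by mean ratio calmodulin ranked 2 and the binding protein 346. Likeness was measured as the distance between the 3 log2 ratios of a pair of genes, over 7177 genes with all probes above background in both RNAs on all arrays. Only 2 genes lay within 0.5 of calmodulin. They were Contig10687 (distance 0.33), matched to a rice gene with no named function, and Contig4289 (0.47), which encodes the ribosomal protein S13. The next were Contig6782 (0.58), an ADP-ribosylation factor, a small GTPase of vesicle traffic, then Contig17706 (0.63), matched to a cyanobacterial gene with no named function, and a singleton similar to a receptor kinase (0.72). Contig10687 had 1.71, 2.04 and 1.76 on arrays 1, 2 and 3, and Contig4289 had 2.00, 1.65 and 1.69.

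Within 0.5 of the binding protein lay 248 genes. The nearest were TMIRS_121_F05.F (distance 0.07), described as similar to a membrane-associated protein induced by salt, and Contig10745 (0.08), for which no description was used here. Contig6307 (0.09) and Contig13535 (0.13) matched proteins with no known function, and Contig4218 (0.11) encodes a stromal ascorbate peroxidase, which removes hydrogen peroxide in the chloroplast. Contig4218 had 0.46, 1.15 and 0.88 on arrays 1, 2 and 3. Each of the nearest genes named had the same order of arrays as the binding protein. They were chosen by distance over these ratios, so that the shared order is no separate result. These likenesses rest on 3 arrays, which share their processing.

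**Figure D4:**
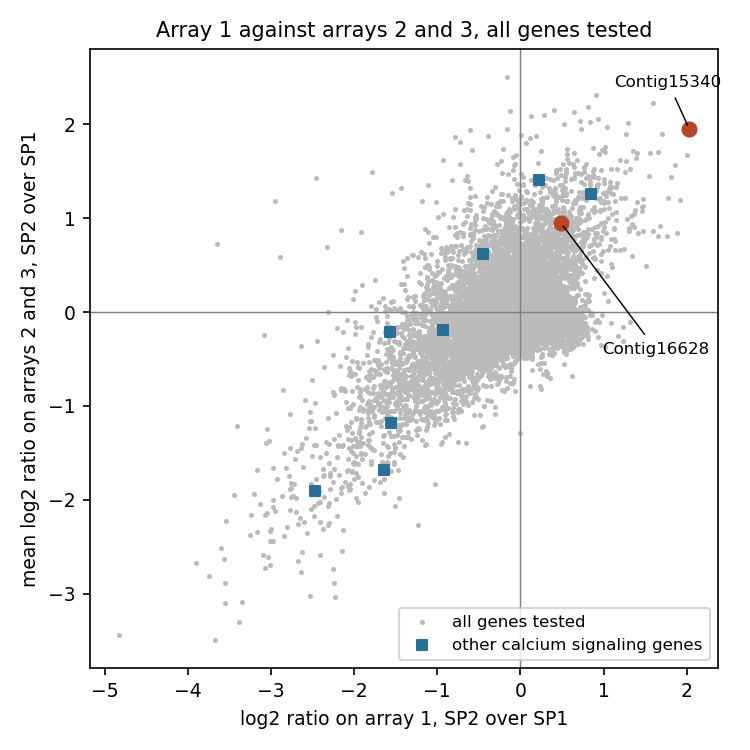
Log2 ratio of SP2 RNA over SP1 RNA on array 1 (horizontal axis) against the mean ratio on arrays 2 and 3 (vertical axis) for 11081 genes tested (grey), the 8 other calcium signaling genes (blue squares) and the 2 genes described here (red circles). Calmodulin lies at the right edge of all genes, with 2.03 on array 1, and the binding protein at 0.48 on the upper side of the cloud.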

How the data were processed

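By the study's methods, polyribosomal RNA of fiber initials and whole ovules was labeled with Cy3 or Cy5, 2 RNAs to an array. Per the labels, images were quantified with Agilent Feature Extraction, whose version is not given in the sources used here. The deposited scanner files hold, per the file headers, mean pixel intensity per spot and local background in green and red, with no background subtracted and dyes not normalized. A flag of other kind (0 or 1) in these deposited files marks green spots well above background. The deposited series table holds the authors' log2 of red over green after background subtraction, neither centred nor turned. Recomputed ratios matched it at 42034 of 42034 spots within 1e-06.

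Here background was corrected by normexp (limma 3.58.1, R 4.3.3, offset 50) and ratios were normalized by loess on the gene spots of each array. A probe's value was the mean of its spots, and a gene's that of its probes. Red was called above background over the negative controls' median plus 2.6 robust SD. Of 40372 probes, 38713 above background in either color on at least 2 arrays were kept. Of 11143 genes, 11081 were tested with limma (lmFit, eBayes) against 0, with Benjamini-Hochberg adjustment and a threshold of 0.05. The methods' threshold was a 2-fold change or more and an unadjusted p not above 0.05. Their mixed analysis of variance used other arrays as well and was not run. For levels of each RNA, average intensities were made alike between arrays (Aquantile). The fit was tested on simulated data. 1 spot named by its own probe number was given to the gene of that probe set. Alternatives were other normalizations, offset, filter, probe summary, orientation, test, and each array left out.

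Genes named were calmodulin and the calmodulin-binding protein, 10 genes of calcium signaling, 5 fiber markers, 3 genes of dividing cells, and the 5 genes nearest to each of the 2 genes. The calcium signaling genes were taken by keyword from the study's table, except Contig9400, which was added from the study's text. The genes and lists were chosen with earlier results of these data known. Probe sequences were not used here, so that no sequence and no genome position is given.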

Additional observations from a re-analysis of the deposited data

How the results depend on the processing

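Calmodulin kept a positive ratio of SP2 over SP1 RNA in each setting that used the codes. Its ratio was 2.53 with the deposited ratios, 2.27 with these centred and 2.38 with median centring, and between 1.91 and 2.07 with 1 array left out. That of the binding protein was between 0.63 and 0.95 with 1 array left out. By the labels the means turned to -0.62 for calmodulin and -0.47 for the binding protein, to -0.86 for Contig15029, -0.55 for Contig15438, 0.45 for Contig4830, -0.56 for Contig9400, 0.27 for TMIRS_001_A07.F and 0.58 for the CDPK-related singleton. The labels name SP2 RNA fiber on array 1 and ovule on arrays 2 and 3, so that these means mix both orientations. Contig9400 also turned without array 2 (-0.0314), and was at most 0.61 with 1 array left out.

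Of all genes, 1359 were called, against 246 with the deposited ratios, 773 with these centred, 329 with median centring, 716 at the methods' threshold, 2 with the ordinary test and 0 by the labels. The count was 2253 with arrays 1 and 2 as 1 sample and 2231 with both dye orientations weighted alike, settings chosen after seeing the data. With 1 array left out it lay between 994 and 1999. Without array 2, without array 3 and with arrays 1 and 2 as 1 sample, the calcium genes all had the same SE. Counts in those settings, here and below, do not reflect each gene's own spread. Of the called genes 67.8% were lower in SP2 RNA, 78.9% with the centred deposited ratios and 43.9% without array 1. Of the 8 calcium genes other than calmodulin and the binding protein, 1 was higher and 3 were lower, against 3.95% and 8.31% of all genes. With the deposited ratios 0 were higher and 2 lower (0.812% and 1.41% of all genes), with median centring 0 and 3 (0.722% and 2.25%), and with the ordinary test or by the labels 0 and 0. With 1 array left out, 1 to 2 were higher and 3 to 4 lower. Of all genes, 2% to 10.1% were then higher and 6.97% to 9.11% lower. The 8, apart from Contig9400, came from a table filtered in part on these ratios. Calmodulin and the binding protein were chosen by theirs. The counts over the 8 and over all 10 genes are therefore a description. Over all 10 genes, 3 were higher and 3 lower. The higher ones include calmodulin and the binding protein, whose calls are no test of them. Counts of the 10 were 1 higher and 2 lower with the deposited ratios, 1 and 3 with median centring, and 0 and 0 with the ordinary test or by the labels. With 1 array left out, 2 to 4 of the 10 were higher and 3 to 4 lower. The counts or shares of all genes in each of these settings are those given above. The cause of these differences was not tested. Each ratio already pairs both RNAs of an array, so that the limma fit of the ratios is a paired analysis. The labels give no replicate numbers, and no further pairing was made. The number of arrays, 3, limits the precision.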
